A study of Mus musculus with 2 samples.

Results

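The serine synthesis and one-carbon genes described here are 8 genes, chosen by name: Phgdh, Psat1, Psph, Shmt1, Shmt2, Mthfd1, Mthfd2 and Mthfd1l, out of 52550 gene identifiers in the count matrices. They were followed through Drop-seq libraries, in which the RNA of single cells is tagged in droplets with a cell barcode and a unique molecular identifier (UMI), so that each UMI counts 1 captured molecule. The 2 libraries are biological replicates of 1 group, made from WT embryos of the CD1 mouse strain at age E10.0, and no mutant or treated samples are included. Each library was made on its own day from about 80 pooled embryos, whose heart tube and posterior second heart field had been dissected out together. All values below are thus unperturbed levels compared between cell types, and the replicate is the library of pooled embryos, not the cell.

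Serine is made from the glycolytic intermediate 3-phosphoglycerate by 3 enzymes in a row, encoded by Phgdh, Psat1 and Psph. The serine hydroxymethyltransferases then move a carbon from serine to tetrahydrofolate, yielding glycine: Shmt1 in the cytosol and nucleus, Shmt2 in mitochondria. The Mthfd enzymes pass that carbon on: Mthfd2 and Mthfd1l turn it into formate in mitochondria, and Mthfd1 takes up formate in the cytosol, where the carbon enters purine and thymidylate synthesis and the methionine cycle. Growing tissues of the embryo use this route for nucleotides, and folate supply is well known for its role in closing the neural tube and shaping the heart.

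The promoters of the 3 serine synthesis genes are shown because the results turn on how unequally these genes of 1 linear pathway were expressed. They are the RefSeq sequences on GRCm38.p6 from 250 bases before to 50 bases after the annotated start, read 5′ to 3′ along the gene. Capitals mark matches, on either strand, to the CCAAT box (CCAAT, in 37.4% of the 32851 mouse promoters of the same length) and to the antioxidant response element core (TGACNNNGC, in 12.4%). The windows are chr3:98339920-98340219 for Phgdh, chr19:15925010-15925309 for the first of the Psat1 starts and chr5:129787204-129787503 for Psph, all on the minus strand.
Phgdh: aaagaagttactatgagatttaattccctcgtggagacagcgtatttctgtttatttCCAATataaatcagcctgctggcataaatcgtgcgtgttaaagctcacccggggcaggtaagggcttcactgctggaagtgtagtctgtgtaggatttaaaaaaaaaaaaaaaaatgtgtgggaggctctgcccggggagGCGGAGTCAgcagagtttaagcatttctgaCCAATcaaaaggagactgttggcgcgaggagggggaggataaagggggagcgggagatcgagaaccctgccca
Psat1: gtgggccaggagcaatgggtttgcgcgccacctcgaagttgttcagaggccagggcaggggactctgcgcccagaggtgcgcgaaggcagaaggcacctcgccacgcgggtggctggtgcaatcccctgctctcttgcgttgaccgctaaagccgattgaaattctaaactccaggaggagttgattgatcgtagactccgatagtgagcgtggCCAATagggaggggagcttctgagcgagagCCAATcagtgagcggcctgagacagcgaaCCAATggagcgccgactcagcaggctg
Psph: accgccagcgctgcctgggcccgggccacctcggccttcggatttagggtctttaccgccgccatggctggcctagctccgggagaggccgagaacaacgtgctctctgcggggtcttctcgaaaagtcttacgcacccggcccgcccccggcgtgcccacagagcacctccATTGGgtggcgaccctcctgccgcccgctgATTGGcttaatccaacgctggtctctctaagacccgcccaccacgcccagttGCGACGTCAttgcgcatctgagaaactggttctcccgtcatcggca

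The CCAAT box was found in the windows of 6 of the 8 genes, 3 times each at Psat1 and Mthfd2, 2 times each at Phgdh and Psph, and once each at Shmt1 and Mthfd1. No window of the 8 genes held the Atf4/Cebp response element TGATGNAA, which occurs in 3.97% of promoters, or the E-box CACGTG, which occurs in 7.15%. The GC box GGGCGG, found in 35.7% of promoters, was in the Psph, Shmt1, Mthfd1 and Mthfd1l windows and in that of the other Psat1 start. These matches describe the letters in the windows and say nothing of binding.

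In GENCODE M21 coordinates on mm10, Phgdh lies at chr3:98313170-98339990, Psat1 at chr19:15904678-15947337 and Psph at chr5:129765558-129787449. Shmt1 lies at chr11:60788104-60811718, Shmt2 at chr10:127517123-127522444 and Mthfd2 at chr6:83305691-83325908, all of these on the minus strand. Mthfd1 at chr12:76255298-76319803 and Mthfd1l at chr10:3973118-4167081 are on the plus strand. Protein-coding neighbours overlap on the opposite strand at Psph (Cct6a), Shmt1 (Smcr8) and Shmt2 (Ndufa4l2), and gene models of predicted genes overlap on the same strand at Mthfd2 and Mthfd1l. Whether strand was used in counting is not given in the sources used here, so reads of such overlapping genes cannot be told apart.

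The replicates came with 5000 and 7497 barcodes and with 11958912 and 14131384 UMIs. After barcodes under 400 genes or over 10% mitochondrial UMIs and the 5% with the highest doublet scores were dropped, 3864 and 4743 cells were kept, with medians of 1375.5 and 1503 UMIs. The libraries shared 82 barcodes, and 1 kept cell carried one of them. Clusters were made without the 8 genes or any other gene tested and were named from marker genes as "-like". This gave 11 classes of at least 20 cells in each library (2791 and 3349 cells), 10 of them named by type, while 3 clusters of 1619, 751 and 88 cells stayed unnamed. The dissected tissue thus held, beside heart muscle, liver, gut, neural, blood, vessel and mesenchymal classes. The cardiomyocyte-like class (201 and 236 cells) had all 15 of its sarcomere and muscle markers raised. The class of 365 and 399 cells that came nearest to the second heart field (SHF) is called by its leading genes Osr1 and Aldh1a2, the Osr1/Aldh1a2 class. It had 6 of 10 SHF markers raised, namely Osr1, Aldh1a2, Tbx5, Hoxb1, Foxf1 and Wnt2, and the highest summed SHF marker level of the 11 classes, 1566 and 1655 CPM (counts scaled as described below). Isl1 was not among the raised markers. Its 10 leading genes held 4 markers of the splanchnic mesenchyme list (Cxcl13, Nkx6-1, Fendrr and Foxf1) against 3 of the SHF list (Aldh1a2, Osr1 and Foxf1), and its splanchnic markers summed to 789 and 647 CPM, above the 505 and 518 of the splanchnic mesenchyme-like class. It was therefore given no cell type name. The foregut endoderm-like class joined a pair of epithelial clusters, and Foxa2, Foxa1, Nkx2-1 and Shh were raised in the smaller of them alone. The larger cluster had 7 foregut endoderm and 4 surface ectoderm markers raised. It gave 182 and 491 cells of replicates 1 and 2, and the smaller gave 214 and 181. The pharyngeal or limb mesenchyme-like class likewise joined clusters of 927 and 715 cells. The smaller had 6 markers of that type and 5 of paraxial mesoderm raised, with Meox2 and Tcf15 among its leading genes. It gave 285 and 430 cells of replicates 1 and 2, and the larger gave 465 and 462. The mesenchymal clusters were not tested apart.

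Levels are given as CPM, the UMIs of a gene per 1000000 UMIs of a class in a library. Drop-seq counts transcript 3′ ends, so a level is not divided by gene length, and 1 UMI stands for 1 molecule of any gene. In these dissections the 8 genes were all detected at modest levels. Over all barcodes of replicates 1 and 2, Psat1 stood at 115 and 131 CPM, Mthfd2 at 117 and 110, Shmt2 at 68.7 and 91.3, Mthfd1 at 77.8 and 82.6, Shmt1 at 69.2 and 70.6, Phgdh at 39.3 and 62.1, Psph at 39.4 and 41.5, and Mthfd1l at 40.7 and 37.6. Barcodes with 10 to 200 UMIs held 9 or fewer UMIs of each of the 8 genes in both libraries together, too few to give a level of free RNA.

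**Figure D1:**
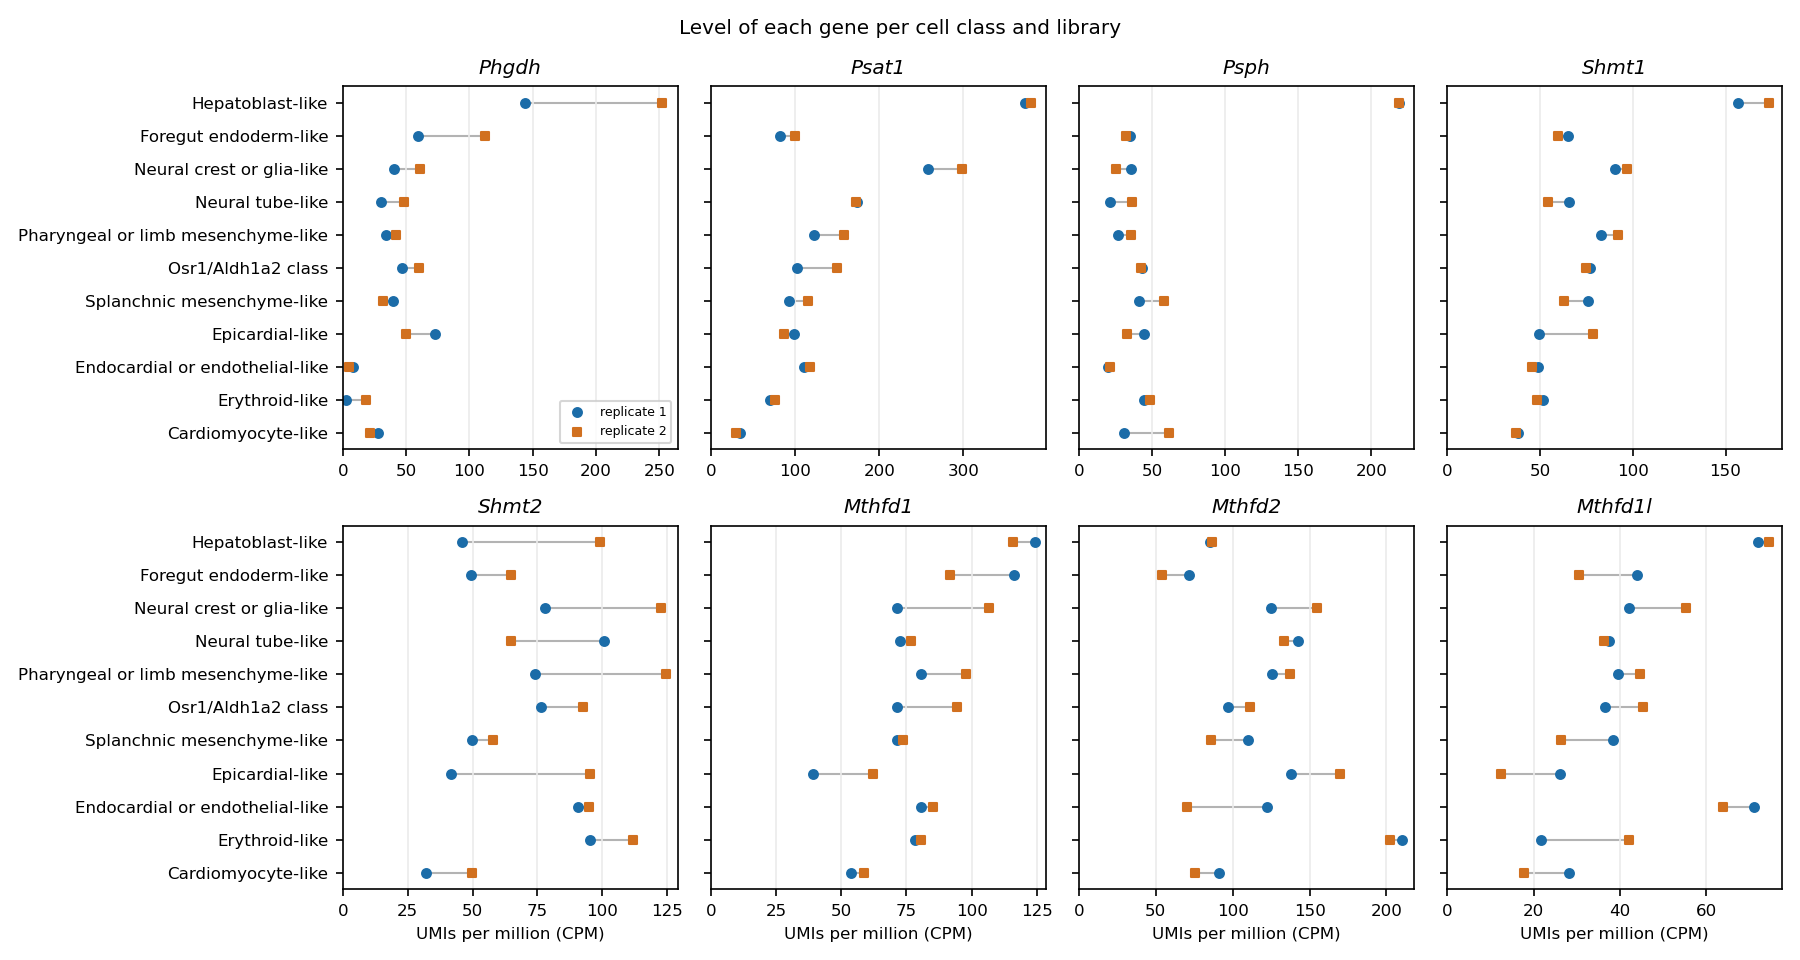
Level of each gene in CPM (x axis, linear from 0, scaled per panel) in the 11 cell classes (y axis), with a circle for replicate 1 and a square for replicate 2. By class mean, the hepatoblast-like class is highest for Phgdh, Psat1, Psph, Shmt1, Mthfd1 and Mthfd1l, and the erythroid-like class for Shmt2 and Mthfd2. The cardiomyocyte-like class has the lowest mean for Psat1, Shmt1 and Shmt2. For Shmt2, the replicate 2 points of pharyngeal or limb mesenchyme-like (124) and neural crest or glia-like cells (123) lie right of both erythroid-like points (95.1 and 112).

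The first enzyme of the pathway was the most uneven of the 8. Phgdh, which oxidises 3-phosphoglycerate and commits carbon to serine, ranged 31.0-fold between class means. It was highest in hepatoblast-like cells, at 144 and 252 CPM in replicates 1 and 2, and next in foregut endoderm-like cells, at 59.1 and 113. From the third place down, epicardial-like, Osr1/Aldh1a2 (46.6 and 60.5), neural crest or glia-like, neural tube-like, pharyngeal or limb mesenchyme-like and splanchnic mesenchyme-like cells overlapped from neighbour to neighbour. Cardiomyocyte-like cells followed at 28.1 and 21.7 CPM. At the bottom stood erythroid-like cells, at 2.83 and 18.3 CPM (3 and 20 UMIs), and endocardial or endothelial-like cells, at 7.88 and 4.91 (4 and 3 UMIs). The low levels of these blood and vessel classes rest on few molecules, and the erythroid-like value differed between libraries by more than the value of the lower one.

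Each class was tested against the mean of the other 10 over all 5802 genes kept out of clustering that passed a filter on low counts, with fold changes on the log2 scale (± SE) and p-values adjusted over those genes. Over all 11 class contrasts 12.4% of tests were called higher and 6.78% lower at an adjusted p under 0.05. Of the 88 pairs of gene and class here, 16 were called higher and 17 lower. That is 18.2% higher and 19.3% lower. The counts depend on the setting: DESeq2 called 14 higher and 10 lower (15.9 and 11.4%, against 9.38 and 5.12% of all tests by the same tool), the fit without the library as a block 13 and 8 (14.8 and 9.09%, against 7.26 and 3.34%), and cells thinned to 1000 UMIs 9 and 4 (10.2 and 4.55%, against 7.27 and 3.01%). Of the 33 calls, 24 were also made by DESeq2, 21 without the block and 13 in thinned cells. For Phgdh, the calls were higher in hepatoblast-like cells (2.45 ± 0.23, adjusted p = 5.58e-13) and in foregut endoderm-like cells (1.14 ± 0.15, adjusted p = 2.54e-08). The calls were lower in endothelial-like cells (−2.93 ± 0.45, adjusted p = 2.98e-07) and in erythroid-like cells (−1.08 ± 0.33, adjusted p = 0.00537). The erythroid-like value was −2.86 in replicate 1 alone and −0.28 in replicate 2 alone.

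The second enzyme did not follow the first. Psat1, the aminotransferase that makes phosphoserine, was highest in hepatoblast-like cells at 373 and 380 CPM. Neural crest or glia-like cells came next at 258 and 298, then neural tube-like cells at 173 and 172 and pharyngeal or limb mesenchyme-like cells at 122 and 158. None of the first 4 classes overlapped its neighbour above. Osr1/Aldh1a2 cells, at 103 and 150 CPM, overlapped the mesenchyme, and endothelial-like cells held 110 and 118. Erythroid-like cells held 70.6 and 76.0, and cardiomyocyte-like cells were last at 34.5 and 29.3. In the endothelial-like class, Psat1 was thus captured with 128 UMIs in both libraries together where Phgdh had 7.

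Tests placed Psat1 higher in hepatoblast-like cells (1.70 ± 0.14, adjusted p = 1.34e-15). In neural crest or glia-like cells it was higher too (1.21 ± 0.11, adjusted p = 8.28e-14), the 1 call on the 8 genes in a class where 8.77% of all genes were higher and 4.55% lower. By less, it was higher in neural tube-like cells (0.44 ± 0.14, adjusted p = 0.0248), again the 1 call, where 9.05% of all genes were higher and 4.21% lower. It was lower in cardiomyocyte-like cells (−2.10 ± 0.18, adjusted p = 6.20e-15) and in foregut endoderm-like cells (−0.57 ± 0.11, adjusted p = 4.80e-05). In foregut endoderm-like cells Phgdh was therefore called higher and Psat1 lower than in the other classes. This class mixes its pair of epithelial clusters in unequal shares in the libraries, and the clusters were not tested apart.

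Psph, the phosphatase that releases free serine, was highest in 1 class. Hepatoblast-like cells held 219 and 219 CPM, and the other 10 class means lay between 20.5 and 49.4 CPM, each overlapping its neighbour. With haemoglobin UMIs left out of the totals, erythroid-like cells came second, at 72.3 and 86.5 CPM. They then stood clear of splanchnic mesenchyme-like cells, at 40.8 and 58.1 CPM. The test gave 2.50 ± 0.19 in hepatoblast-like cells (adjusted p = 2.99e-16). Erythroid-like cells were called higher (1.11 ± 0.19, adjusted p = 1.68e-06) after scaling for haemoglobin, as described below. The endothelial-like class (−1.20 ± 0.29, adjusted p = 0.00101), pharyngeal or limb mesenchyme-like cells (−0.57 ± 0.17, adjusted p = 0.0145) and foregut endoderm-like cells (−0.51 ± 0.17, adjusted p = 0.0186) were called lower. DESeq2 did not call Psph in the mesenchyme (adjusted p = 0.0925) or in foregut endoderm-like cells (adjusted p = 0.131), and neither call was made without the library as a block (adjusted p = 0.277 and 0.261).

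The hepatoblast-like class (88 and 71 cells), an early liver population marked by Afp, Alb and Ttr, was the 1 class in which all 3 serine synthesis genes were called higher. Of the 8 genes, 5 were called higher there and 0 lower, where 7.00% of all tested genes were called higher and 4.65% lower. The remaining calls were Shmt1, at 157 and 174 CPM (1.28 ± 0.19, adjusted p = 2.67e-07), and Mthfd1l, at 71.9 and 74.4 CPM (0.89 ± 0.29, adjusted p = 0.0361). Shmt2 was not called, at 45.8 and 99.2 CPM, values apart by more than the lower one. The median change of the 8 genes was 1.08, against −0.05 over all genes tested.

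Among 14 tested genes of serine and glycine transport and use, 3 were higher in hepatoblast-like cells and 0 lower, and all 3 encode parts of the mitochondrial glycine cleavage system, which breaks glycine down and feeds its carbon to folate. Gldc, its decarboxylase, stood at 29.4 and 24.8 CPM there and at 14.1 CPM or less in either library of the other 10 classes (3.68 ± 0.68, adjusted p = 4.76e-05). Amt, its aminomethyltransferase, stood at 58.8 and 95.1 CPM (1.95 ± 0.32, adjusted p = 5.41e-06). Gcsh, its carrier protein, stood at 225 and 190 CPM (0.60 ± 0.17, adjusted p = 0.00938). Of the 15 tested genes on the list of the stress factor Atf4 and its targets, 1 was higher (Atf5, 1.42) and 1 lower (Atf4 itself, −0.64, adjusted p = 0.00359). Of 20 cytosolic tRNA synthetases, which the same factor is known to induce, 0 were higher and 1 was lower (Wars, −0.87). On those 2 lists DESeq2 also called 1 and 0 higher. In this class edgeR called 7.00% of all tested genes higher and 4.65% lower.

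The hydroxymethyltransferases differed from each other. Shmt1 shared the ends of its order with Psat1. Hepatoblast-like cells came first, then neural crest or glia-like cells at 90.6 and 97.1 CPM, and cardiomyocyte-like cells last at 38.4 and 37.0. Between these ends, neural tube-like cells were in place 3 for Psat1 and 8 for Shmt1. Endothelial-like cells were in place 6 for Psat1 and 10 for Shmt1. Over the 11 class means Pearson's r between Shmt1 and Psat1 was 0.87, and 0.81 without the hepatoblast-like class. Phgdh and Psph reached 0.66 with that class and 0.18 without it. These are descriptions over classes that share libraries, and none was taken without the cardiomyocyte-like class, the lowest for Shmt1 and Psat1. All coefficients between pairs of the 8 genes used log2 of CPM plus 10, with haemoglobin UMIs in the totals. That scale lowers every erythroid-like level, and its part in the coefficients was not tested. Shmt2 varied 2.53-fold, and 9 of its 10 neighbouring pairs overlapped, all but the step down to cardiomyocyte-like cells, at 32.0 and 49.8 CPM. With haemoglobin UMIs left out of the totals, it varied 4.32-fold, and erythroid-like cells, at 177 CPM, also stood clear of the next class, at 100.4. Cardiomyocyte-like cells were called lower for Shmt2 (−0.95 ± 0.21, adjusted p = 0.000197). Shmt2 was also called lower in splanchnic mesenchyme-like cells (−0.62 ± 0.20, adjusted p = 0.0324), the 1 call on the 8 genes there, where 7.95% of all genes were higher and 1.81% lower. That call was not made by DESeq2 (adjusted p = 0.107), without the block (adjusted p = 0.377) or on library totals without the TMM scaling factors that edgeR adds (adjusted p = 0.0921). In pharyngeal or limb mesenchyme-like cells it was called higher (0.37 ± 0.13, adjusted p = 0.0457), beside the lower call on Psph, where 9.70% of all genes were higher and 2.52% lower. That Shmt2 call had a value of −0.02 with doublets kept, and was not made by DESeq2 (adjusted p = 0.499) or without the block (adjusted p = 0.702).

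Of the folate enzymes, Mthfd1 varied least over the classes, 2.37-fold from 120 ± 5.99 CPM (SD, n = 2) in hepatoblast-like cells to 50.6 ± 16.3 CPM in epicardial-like cells, and 2.68-fold without haemoglobin UMIs, where erythroid-like cells came first. In epicardial-like cells it was called lower (−0.84 ± 0.26, adjusted p = 0.0263), the 1 call on the 8 genes. There 8.58% of all genes were higher and 2.05% lower. Cardiomyocyte markers summed to 2642 and 4155 CPM in that class, above its epicardial markers at 1944 and 2278. The part of this muscle RNA in the value was not tested. DESeq2 (adjusted p = 0.0666) and the fit without the block (adjusted p = 0.0578) did not make that call. Its mitochondrial partner Mthfd1l, the formate-releasing synthetase, was high in hepatoblast-like cells and in endothelial-like cells, the latter at 70.9 and 63.8 CPM (0.82 ± 0.23, adjusted p = 0.00552). The endothelial-like class therefore had Mthfd1l higher and Phgdh, Psph and Shmt1 lower, 1 and 3 of the 8 genes, where 14.8% of all genes were higher and 7.57% lower. Mthfd1 and Mthfd1l had an r of 0.82 over the class means, and 0.74 without the hepatoblast-like class.

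Mthfd2, the mitochondrial dehydrogenase and cyclohydrolase typical of embryonic and proliferating cells, had an order of its own. Erythroid-like cells led at 210 and 202 CPM, ahead of epicardial-like cells at 138 and 170, without overlap. Hepatoblast-like cells were in the ninth place at 85.0 and 86.8, though first for 6 of the other genes, or 5 with haemoglobin UMIs left out of the totals. Foregut endoderm-like cells were last at 71.5 and 54.2 CPM and were called lower (−1.07 ± 0.13, adjusted p = 1.76e-09). In that class 1 of the 8 genes was higher and 4 were lower (Psat1, Psph, Shmt2 and Mthfd2), where 16.1% of all genes were higher and 6.50% lower.

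Erythroid-like cells (159 and 148 cells) need a separate scale, since haemoglobin transcripts took 38.8 and 43.9% of their UMIs. On the totals with haemoglobin their members' levels are compressed. Leaving haemoglobin UMIs out of the totals, Mthfd2 stood at 352 ± 12.6 CPM (SD, n = 2), Shmt2 at 177 ± 31.0, Mthfd1 at 136 ± 11.3, Psat1 at 125 ± 14.3 and Phgdh at 18.6 ± 19.8. The TMM factors of edgeR, which set the bulk of genes equal between classes, were 0.57 and 0.53 for this class.

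With those factors 6 of the 8 genes were called higher in erythroid-like cells and 1, Phgdh, lower, where 24.8% of all genes were higher and 26.5% lower. The mitochondrial genes led: Mthfd2 by 1.93 ± 0.11 (adjusted p = 1.17e-21) and Shmt2 by 1.49 ± 0.15 (adjusted p = 1.17e-12). Mthfd1 (0.96 ± 0.15, adjusted p = 2.38e-07), Mthfd1l (0.66 ± 0.24, adjusted p = 0.0159) and Shmt1 (0.47 ± 0.16, adjusted p = 0.0134) were called higher by less. On library totals without TMM factors the median of all genes in this class was −1.08, and the split of calls changed from 1441 higher and 1540 lower to 315 and 3619. There, Mthfd2 (0.97) and Shmt2 (0.53) were still called higher, Psph (0.15) was not called, and Mthfd1 (−0.0008), Mthfd1l (−0.30) and Shmt1 (−0.49) had lost or turned their direction. Those 6 genes still lay above the median of all genes there. Mthfd1l in this class was 0.00 in replicate 1 alone and 1.26 in replicate 2 alone.

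The erythroid-like class was also where the Atf4 list and the tRNA synthetases stood highest relative to the bulk of genes. Of the 20 synthetases, 19 were called higher and 0 lower with TMM factors, and 1 and 5 without them. Of all genes in this class 24.8% were higher and 26.5% lower with TMM factors. Without them 315 of the 5802 genes were higher and 3619 lower. Nars, the asparaginyl synthetase, stood at 610 and 464 CPM (1.93 ± 0.08, adjusted p = 2.39e-29). Of the 15 tested genes on the Atf4 list, 7 were higher and 2 lower with TMM factors, and 3 and 7 without. Asns, the asparagine synthetase gene, stood at 164 and 221 CPM against 32.2 and 52.0 in Osr1/Aldh1a2 cells (2.82 ± 0.12, adjusted p = 4.85e-29). Atf4 itself stood at 320 and 289 CPM (1.63 ± 0.09, adjusted p = 2.81e-23), while Ddit4 was lower (−2.48). Of the 14 tested genes of serine and glycine transport and use, 3 were higher and 4 lower, with a median of −0.56 against −0.14 over all genes. Those counts are near the shares of all genes, 24.8% higher and 26.5% lower. The higher ones were the mitochondrial glycine carrier Slc25a38 (2.06 ± 0.21, adjusted p = 7.77e-13), which supplies glycine for haem, the mitochondrial serine carrier Sfxn1 (1.22 ± 0.12, adjusted p = 1.73e-13) and Dld (0.75), a subunit shared by the glycine cleavage system and other mitochondrial complexes. The lower ones were Amt (−2.80, adjusted p = 2.33e-05) and Gcsh (−0.51) of the glycine cleavage system, Slc38a2 (−0.69) and Sptlc2 (−0.80), a subunit of the serine palmitoyltransferase that starts sphingolipid synthesis. Whether the erythroid-like and hepatoblast-like classes differ in these lists was not tested.

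**Figure D2:**
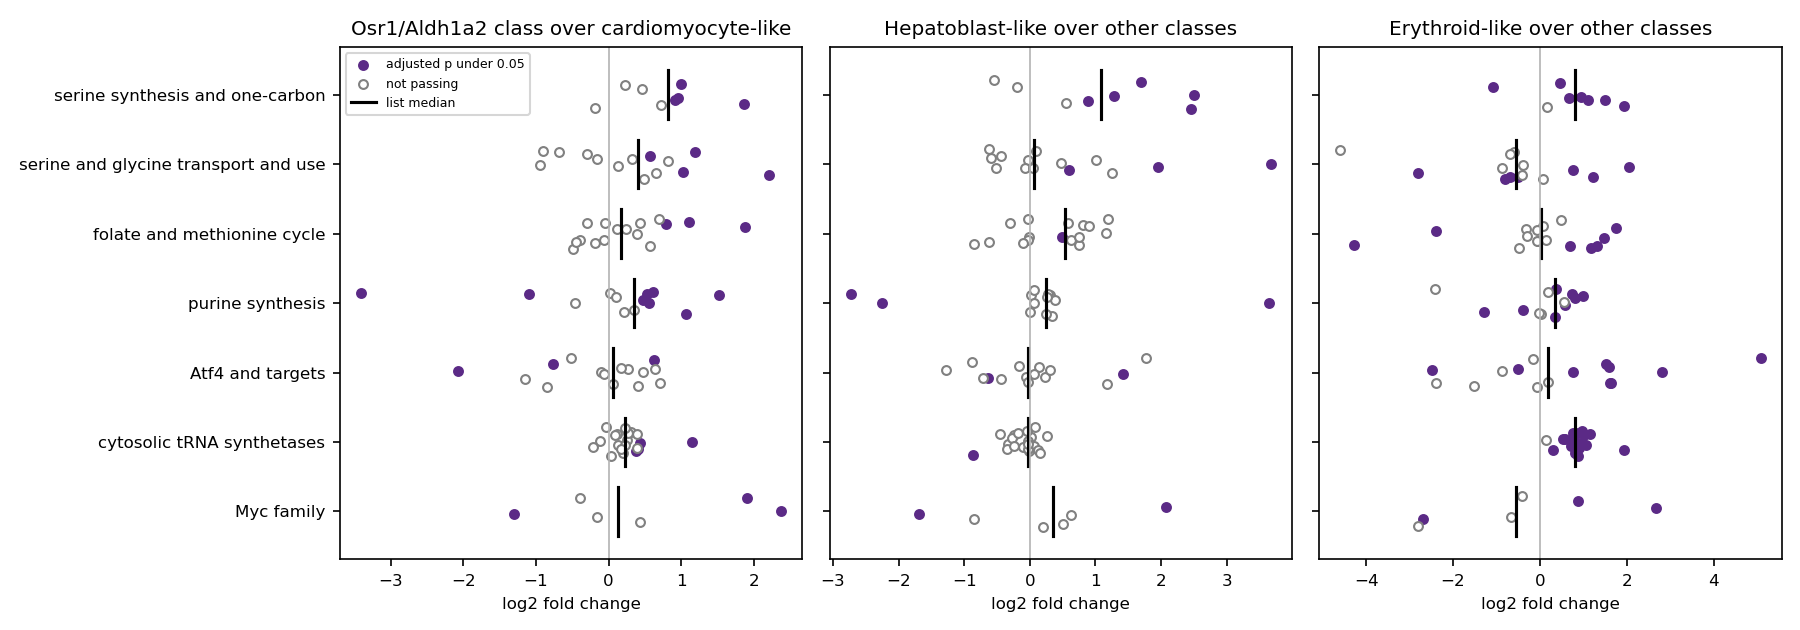
Log2 fold changes (x axis) of the tested genes of each list (y axis) in Osr1/Aldh1a2 over cardiomyocyte-like cells, and in hepatoblast-like and erythroid-like cells over the mean of the other classes, with TMM factors. Filled points passed an adjusted p under 0.05 and bars are list medians; the 20 tRNA synthetases sit near 0 in hepatoblast-like cells, while 19 of 20 are filled and to the right in erythroid-like cells.

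The scale bears on the other classes as well, by less. On library totals without TMM factors the share of calls that were higher moved from 71.2% to 88.8% in foregut endoderm-like cells, from 60.1% to 73.4% in hepatoblast-like cells, from 65.8% to 82.6% in neural crest or glia-like cells and from 68.3% to 82.3% in neural tube-like cells. It moved from 79.4% to 91.1% in pharyngeal or limb mesenchyme-like, from 76.3% to 89.2% in Osr1/Aldh1a2 and from 81.4% to 94.3% in splanchnic mesenchyme-like cells. DESeq2 moved it from 80.7% to 91.5% in epicardial-like cells and from 60.1% to 73.4% in hepatoblast-like cells. On library totals without TMM factors, calls on the 8 genes came to 6 higher in hepatoblast-like cells, 3 higher in neural crest or glia-like cells, and 2 higher and 3 lower in foregut endoderm-like cells. Of the 5802 genes tested, 537, 833 and 1337 were higher and 195, 175 and 169 lower in these classes, in that order. DESeq2 called 5 higher in hepatoblast-like, 1 higher in neural crest or glia-like, and 1 higher and 3 lower in foregut endoderm-like cells, and 0 in the epicardial-like, pharyngeal or limb mesenchyme-like and splanchnic mesenchyme-like classes. Over all genes, in the same order of classes, DESeq2 called 405, 337, 566, 471, 253 and 323 higher. It called 147, 181, 221, 44, 85 and 66 lower. Further calls near the threshold were lost as well: Psat1 in neural tube-like cells and Mthfd1l in hepatoblast-like cells without the library as a block (adjusted p = 0.136 and 0.0797), and Shmt1 in endothelial-like cells with DESeq2 (adjusted p = 0.0546).

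For each of the 8 genes, the genes of most similar level were sought among 1960 others, by the smaller of the Pearson coefficients that the libraries gave over the 11 classes for log2 of CPM plus 10. Psat1 had the closest companions: Cacybp at 0.93, the mitochondrial matrix protein gene C1qbp at 0.90 and the ribosomal protein gene Rps21 at 0.89. Shmt1 came with Hspe1, a mitochondrial chaperonin gene, at 0.86 and again with Cacybp at 0.86. Phgdh came with Tfam, which packages mitochondrial DNA, at 0.86 and with Gcat, an enzyme of threonine breakdown to glycine, at 0.85. Psph stood with secreted liver proteins, Itih2 at 0.86, Ambp at 0.86 and transferrin (Trf) at 0.75. Shmt2 stood nearest the ribosome assembly gene Nhp2 at 0.84, Mthfd1 nearest the mitochondrial ribosomal gene Mrpl34 at 0.79 and Mthfd1l nearest Pnpt1 at 0.79. Mthfd2 had no gene above 0.66, the value for the mitochondrial import gene Timm10. These coefficients pick the best of many genes over few classes, with haemoglobin UMIs in the totals, and are given as a description.

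The Osr1/Aldh1a2 class was compared with heart muscle next, since the study dissected the posterior SHF and the heart tube, to which the SHF adds cells. Psat1, Phgdh, Shmt2 and Shmt1 stood higher in Osr1/Aldh1a2 than in cardiomyocyte-like cells, Psat1 by 3.65-fold, Shmt2 by 1.93-fold and Shmt1 by 1.88-fold. Of the 8 genes 4 were called higher and 0 lower, where 11.9% of the 5802 genes tested were called higher and 13.0% lower. The median change of the 8 was 0.82 on the log2 scale, against 0.03 over all genes tested. The contrast sets these 2 classes side by side. It does not follow cells from one to the other, and given its splanchnic markers the Osr1/Aldh1a2 class cannot be taken as the SHF as such.

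Psat1 carried the largest difference: 103 and 150 CPM in Osr1/Aldh1a2 cells against 34.5 and 29.3 in cardiomyocyte-like cells (log2 fold change 1.87 ± 0.21, adjusted p = 2.73e-10). Both Osr1/Aldh1a2 values lay above both muscle values. In replicate 1 alone the difference was 1.48 and in replicate 2 alone 2.21. Psat1 was called under every alternative setting tried that gave a test.

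Phgdh stood at 46.6 and 60.5 CPM in Osr1/Aldh1a2 cells (55 and 64 UMIs) against 28.1 and 21.7 in muscle (22 and 17 UMIs), with no overlap (1.00 ± 0.31, adjusted p = 0.0131). That call was not made by DESeq2 (0.94, adjusted p = 0.101), without the library as a block (adjusted p = 0.226) or when another random share of genes was used to cluster (0.75, adjusted p = 0.0583). It was 0.64 in replicate 1 alone and 1.33 in replicate 2 alone. When each cell was thinned to 1000 UMIs it came to 2.05, still called.

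Shmt1 stood at 77.2 and 74.7 CPM against 38.4 and 37.0, and Shmt2 at 76.3 and 92.6 against 32.0 and 49.8, again without overlap. Their differences were 0.91 ± 0.22 (adjusted p = 0.00130) and 0.95 ± 0.24 (adjusted p = 0.00222). Cells thinned to 1000 UMIs gave 0.89 and 0.74, not called (adjusted p = 0.200 and 0.279), and without the block Shmt2 was not called (adjusted p = 0.145).

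The folate enzymes and the phosphatase did not pass. Mthfd1l stood at 36.5 and 45.4 CPM against 28.1 and 17.9 (0.73 ± 0.33, adjusted p = 0.109), and Mthfd1 at 71.2 and 94.5 against 53.7 and 58.7 (0.45 ± 0.21, adjusted p = 0.120). On library totals without TMM factors, Mthfd1 was called (0.55, adjusted p = 0.0468). Mthfd2 stood at 96.7 and 112 CPM against 90.8 and 75.3 (0.23 ± 0.19, adjusted p = 0.447). Psph was the 1 gene whose groups overlapped: 43.2 and 42.5 CPM in Osr1/Aldh1a2 cells lay inside 30.7 and 61.2 in muscle (−0.19 ± 0.25, adjusted p = 0.643). Its sign differed between the libraries, 0.40 in replicate 1 alone and −0.67 in replicate 2 alone.

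**Figure D3:**
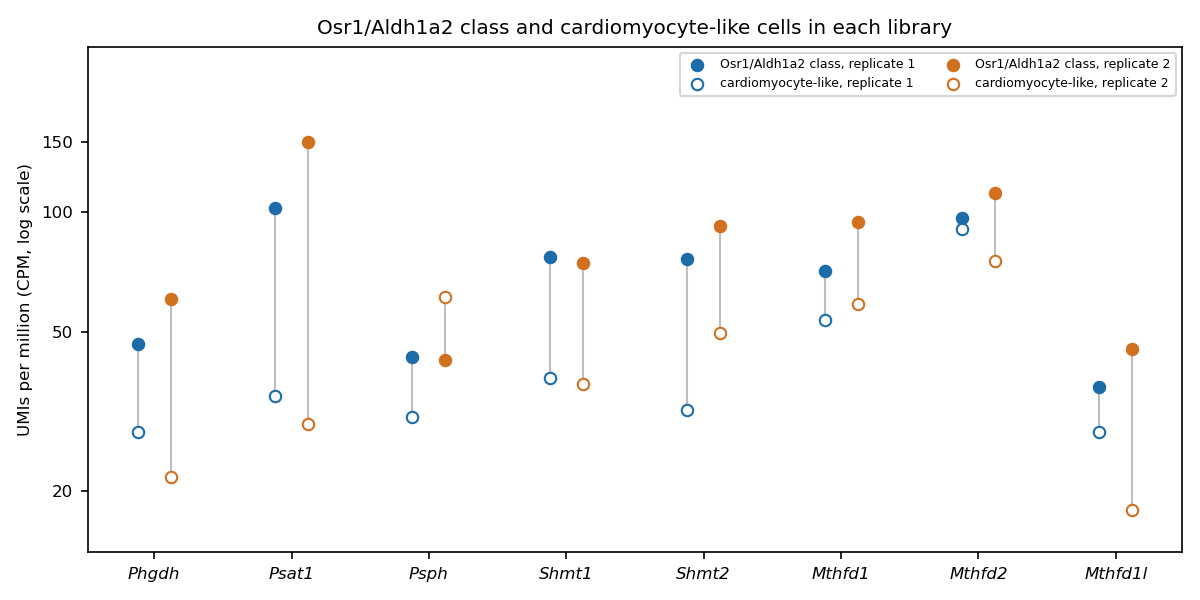
CPM (y axis, log scale) of each gene (x axis) in Osr1/Aldh1a2 cells (filled) and cardiomyocyte-like cells (open) of replicate 1 (left of each pair) and replicate 2 (right). The line joins the classes of 1 library; Psat1 has the longest lines, and Psph in replicate 2 is the 1 case where the open point is on top.

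Each of these classes was also set against the mean of the other 10. Cardiomyocyte-like cells had 6 of the 8 genes lower and 0 higher, where 10.6% of all genes were lower and 17.8% higher. Beside Psat1 and Shmt2 these were Shmt1 (−0.94), Mthfd1l (−0.82), Mthfd1 (−0.55) and Mthfd2 (−0.48). DESeq2 called 4 of the 8 genes lower and 0 higher in cardiomyocyte-like cells, where it called 459 of all genes lower and 833 higher. In Osr1/Aldh1a2 cells 0 of the 8 genes were called in either direction by edgeR, where 11.5% of all genes were called higher and 3.55% lower. At an unadjusted p under 0.05 edgeR had 1 of the 8 there, Phgdh (0.41 ± 0.20), and DESeq2 called 0, while on library totals without TMM factors Phgdh was called (0.52, adjusted p = 0.0475). Of the 6 calls in muscle, those on Psat1, Shmt1 and Shmt2 were made under all alternatives that gave a test, except for Shmt1 and Shmt2 in cells thinned to 1000 UMIs. The calls on Mthfd1, Mthfd1l and Mthfd2 were not made without the library as a block (adjusted p = 0.0765, 0.0728 and 0.113). They were also not made when another random share of genes was used to cluster (adjusted p = 0.0637, 0.122 and 0.144). Over 6 alternatives of tool, filter, block, scaling and depth, Mthfd1 kept its call in 4, and Mthfd1l and Mthfd2 in 3 each.

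Markers of other cell types were summed in both classes. Haemoglobin and other erythroid markers summed to 7709 and 1232 CPM in cardiomyocyte-like cells and to 1652 and 1558 in Osr1/Aldh1a2 cells. The 15 cardiomyocyte markers summed to 30828 and 48640 CPM in muscle and to 372 and 443 in Osr1/Aldh1a2 cells. Splanchnic mesenchyme markers summed to 789 and 647 CPM in Osr1/Aldh1a2 cells and to 15.3 in each library of muscle, and their part in the differences was not tested. Leaving haemoglobin UMIs out of the totals gave 1.87 for Psat1, 1.00 for Phgdh, 0.91 for Shmt1 and 0.96 for Shmt2.

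Other genes around the pathway were read from lists of known function. The list counts that follow stand beside 11.9% of all tested genes called higher and 13.0% called lower. Of 14 tested genes of serine and glycine transport and use, 4 were higher in Osr1/Aldh1a2 than in cardiomyocyte-like cells and 0 lower. These were Cth, the last enzyme on the way from homocysteine to cysteine (2.20), the neutral amino acid carrier Slc1a5 (1.19), Sfxn1 (1.03) and the amino acid carrier Slc38a2 (0.57). Of 16 genes of the folate and methionine cycles, 3 were higher and 0 lower, among them the folate carrier Slc19a1 (1.87) and thymidylate synthase Tyms (1.11). Of 13 purine synthesis genes, 6 were higher and 2 lower. Those with the smallest adjusted p were Adssl1, the muscle isozyme of adenylosuccinate synthase (−3.41), Paics (0.55), Impdh2 (1.53) and Atic (0.62). Adssl1 held 5.09 and 1.89 CPM in Osr1/Aldh1a2 cells against 25.6 and 49.8 in muscle.

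The Atf4 list had 1 gene higher (Ddit4, 0.62) and 2 lower (Eif4ebp1, −0.76, and Atf3, −2.08) out of 15, and Atf4 itself stood at 194 and 192 CPM in Osr1/Aldh1a2 cells against 189 and 188 in muscle. Of 20 tRNA synthetases 4 were higher and 0 lower, led by Vars (1.15). In the Myc family, whose members are known to drive growth and nucleotide synthesis, Mycn (168 and 213 CPM against 28.1 and 67.6, 1.91) and Mycl (2.38) were higher and Myc lower (−1.30). The cell cycle lists differed most in count: 25 of 32 S phase genes and 41 of 54 G2 and M phase genes were higher in Osr1/Aldh1a2 cells and 0 lower. Their medians were 0.81 and 0.57, against 0.82 for the 8 genes.

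Cell cycle UMIs therefore moved with the difference, and the relation of the 8 genes to them was examined within classes. S, G2 and M phase genes together took 22579 and 20637 CPM in Osr1/Aldh1a2 cells and 14514 and 11465 in cardiomyocyte-like cells. Cells of at least 1000 UMIs were thinned to 1000 and divided, within each class and library, into those with more cell cycle UMIs than the median and the rest. This gave 2119 cells with more and 2412 with fewer. The mean number per thinned cell lay between 13.6 and 32.8 in the cells with more and between 4.69 and 16.4 in those with fewer.

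Within classes, 0 of the 8 genes were called higher or lower in the cells with more cell cycle UMIs, by edgeR or by DESeq2, where 2.37% of 4890 tested genes were higher and 2.74% lower. At an unadjusted p under 0.05 edgeR had 2 of the 8, Psph (−0.24 ± 0.11, adjusted p = 0.251) and Mthfd1l (0.26 ± 0.13, adjusted p = 0.286), and DESeq2 had 1, Psph. All 8 estimates lay between −0.24 and 0.26. Of the 22 class and library pairs, the cells with more cell cycle UMIs had the higher level in 15 each for Shmt1, Mthfd2 and Mthfd1l, in 12 each for Phgdh and Psat1, in 11 for Mthfd1, in 9 for Shmt2 and in 6 for Psph. Tyms, the folate-dependent enzyme of thymidylate synthesis, was not called either (0.21 ± 0.07, adjusted p = 0.0508).

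Psat1 was called when only the cells at either end of the range of cell cycle UMIs were compared, with the middle of the range left out, an alternative chosen after seeing the data (0.35, adjusted p = 0.0282), and Shmt1 came close when cells were divided by the S phase list alone (0.29, adjusted p = 0.0532). Within single classes 0 of the 88 pairs were called by edgeR, with 12 at an unadjusted p under 0.05, where 0.325% of all tests were called, and DESeq2 was not run there. Neural tube-like cells had Psat1 at 131 and 124 CPM in the cells with fewer cell cycle UMIs against 213 and 208 in the other. In that class neuron markers summed to 2783 and 2015 CPM in the cells with fewer and to 388 and 583 in the cells with more, and the part of this in the Psat1 values was not tested.

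**Figure D4:**
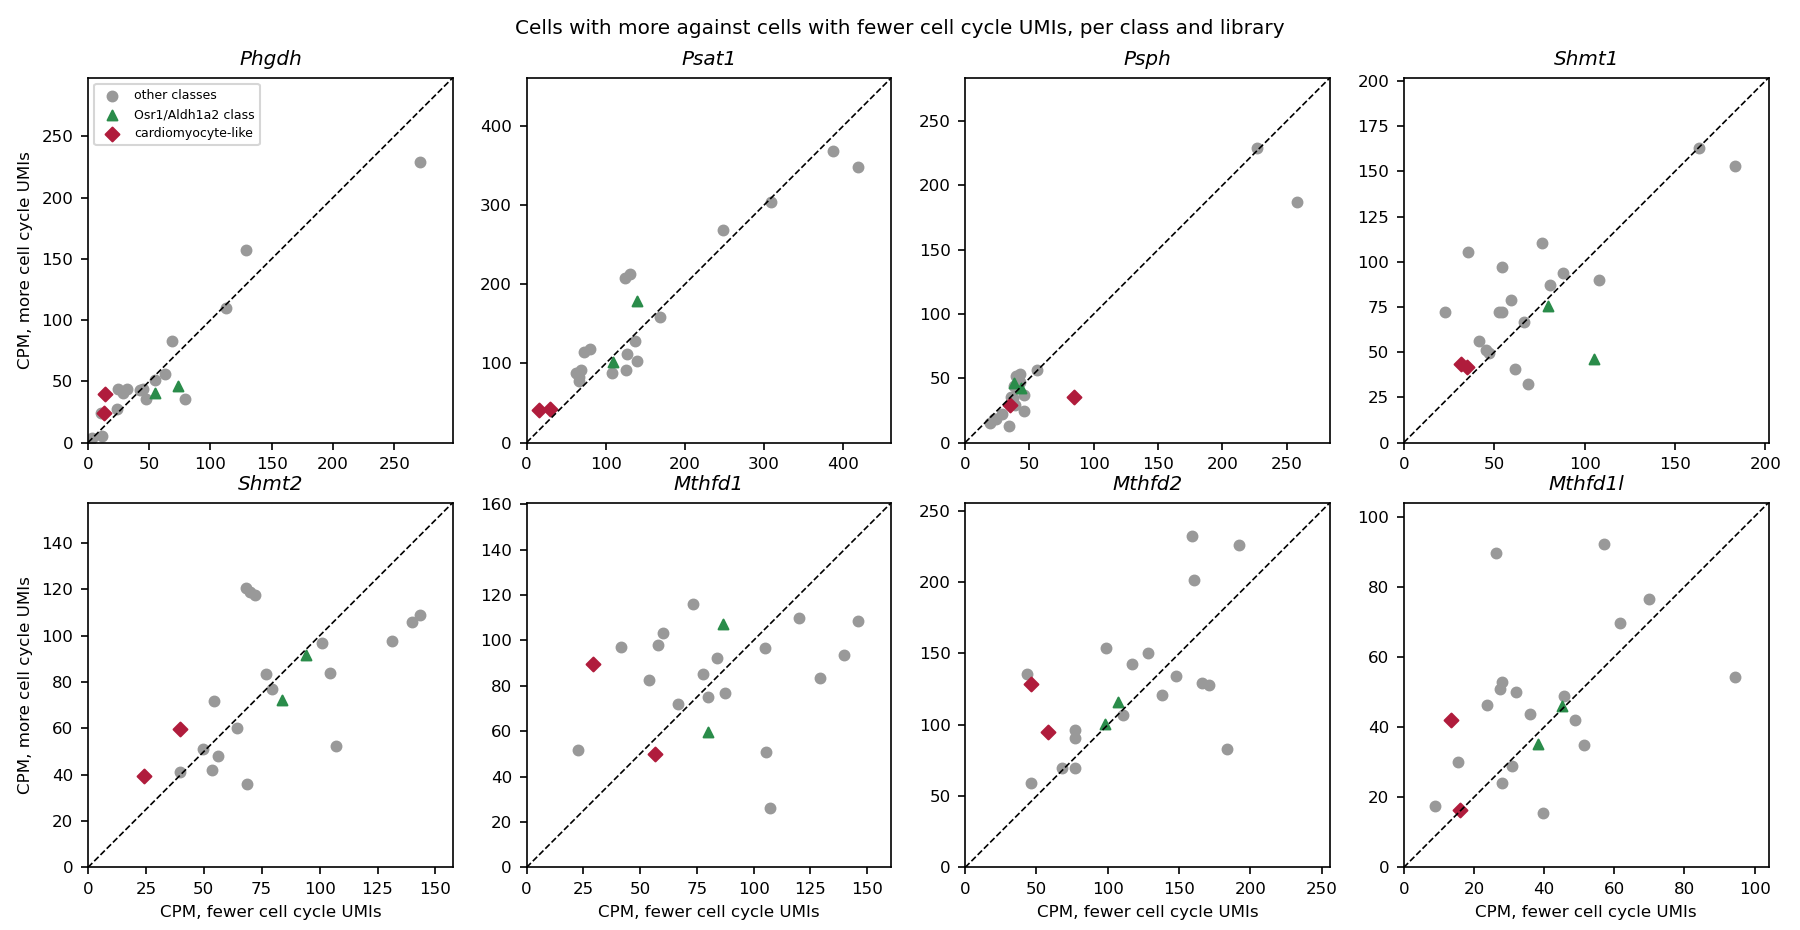
CPM of each gene in cells with fewer (x axis) and with more (y axis) cell cycle UMIs; each point is 1 of 11 classes in 1 of 2 libraries and the dashed line marks equality. Points lie on both sides of the line for each gene, with cardiomyocyte-like cells (diamonds) above it in both libraries for Phgdh, Psat1, Shmt1, Shmt2 and Mthfd2, and in 1 library, with the other on the line, for Mthfd1l.

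The estimates within heart muscle were larger than those over all classes, a difference that was not tested. In cardiomyocyte-like cells 6 of the 8 genes were higher in the cells with more cell cycle UMIs in both libraries, among them Mthfd2, at 45.9 and 58.3 CPM in the cells with fewer and 129 and 95.0 in the cells with more (1.05 ± 0.31, adjusted p = 0.0575). Psat1 stood at 29.7 and 15.9 against 42.0 and 40.7, while Mthfd1l in replicate 2 was nearly equal, at 15.9 and 16.3 CPM from 6 UMIs each. These sums rest on few molecules, 5 to 22 UMIs for each gene but Mthfd2 among those 6. The groups also differed in muscle markers, with sarcomere genes at 39193 and 60215 CPM in the cells with fewer and 23314 and 37926 in the cells with more, and in replicate 1 in erythroid markers (4552 and 10911). What part these have in the values was not tested.

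The Osr1/Aldh1a2 to muscle difference was then read within each group of cells. Among cells with fewer cell cycle UMIs, 6 of the 8 genes were called higher in the Osr1/Aldh1a2 class and 0 lower, where 9.67% of all tested genes were higher and 12.7% lower. Psat1 (2.29 ± 0.31, adjusted p = 2.25e-08) and Phgdh (2.09 ± 0.50, adjusted p = 0.000970) differed most. Shmt2 (1.33 ± 0.35, adjusted p = 0.00325), Shmt1 (1.33 ± 0.33, adjusted p = 0.00138), Mthfd1l (1.35 ± 0.51, adjusted p = 0.0487) and Mthfd2 (0.84 ± 0.30, adjusted p = 0.0338) followed. Phgdh in these cells rested on 5 and 5 UMIs in muscle, 13.5 and 13.3 CPM, against 54.5 and 73.3 in Osr1/Aldh1a2 cells. Mthfd1l rested on 5 and 6 UMIs in muscle. Fewer of the 8 genes were called with the S phase list alone, at the ends of the range or in thinned sums, as given below.

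Among cells with more cell cycle UMIs, only Psat1 of the 8 was called higher (1.64 ± 0.27, adjusted p = 3.14e-06) and 0 were lower, where 4.64% of tested genes were higher and 7.63% lower. Psat1 stood there at 102 and 179 CPM in Osr1/Aldh1a2 cells and at 42.0 and 40.7 in muscle. Phgdh had a difference of 0.34 ± 0.44 in these cells and Mthfd2 of −0.14 ± 0.25. The change of the difference between the groups was itself tested and 0 of the 8 genes passed, the smallest adjusted p being 0.431, where 0.327% of genes were called. At an unadjusted p under 0.05 there were 3, Phgdh (1.75 ± 0.70), Mthfd2 (0.98 ± 0.39) and Psph (−1.06 ± 0.51). The groups were not matched in cell cycle UMIs: Osr1/Aldh1a2 cells with fewer held 17859 and 17121 CPM, near muscle cells with more at 20982 and 17994. Side by side, Psat1 was at 109 and 139 CPM in those Osr1/Aldh1a2 cells and at 42.0 and 40.7 in those muscle cells. Mthfd1 was at 80.0 and 86.5 against 49.9 and 89.6, and Mthfd2 at 98.1 and 107 against 129 and 95.0. Mthfd1l overlapped as well, while Psat1, Phgdh, Psph, Shmt1 and Shmt2 did not. These levels were not tested, and the share of all genes without overlap was not taken.

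Across classes, the relation of levels to cell cycle UMIs depended on single classes. With haemoglobin UMIs left out of the totals, cell cycle levels ran from 14627 and 11479 CPM in cardiomyocyte-like cells to 23031 and 21032 in neural tube-like cells. Over the 11 class means, Pearson's r of log2 levels with the log2 cell cycle level was 0.52 for Psat1, 0.51 for Shmt2, 0.37 for Mthfd1, 0.34 for Shmt1, 0.30 for Mthfd2, 0.26 for Mthfd1l, 0.11 for Phgdh and −0.22 for Psph. Without the hepatoblast-like class it was 0.82 for Psat1, 0.76 for Shmt1 and 0.33 for Phgdh. Without the cardiomyocyte-like class it was −0.08 for Psat1, −0.16 for Shmt1 and 0.15 for Shmt2, so the positive values of these 3 genes rested on muscle, which was low in both. On totals with haemoglobin the erythroid-like class, at 12415 and 10733 CPM of cell cycle genes in place of 20272 and 19125, moved r to −0.21 for Mthfd2, 0.16 for Shmt2 and 0.41 for Phgdh. These coefficients describe classes that share libraries and differ in depth.

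**Figure D5:**
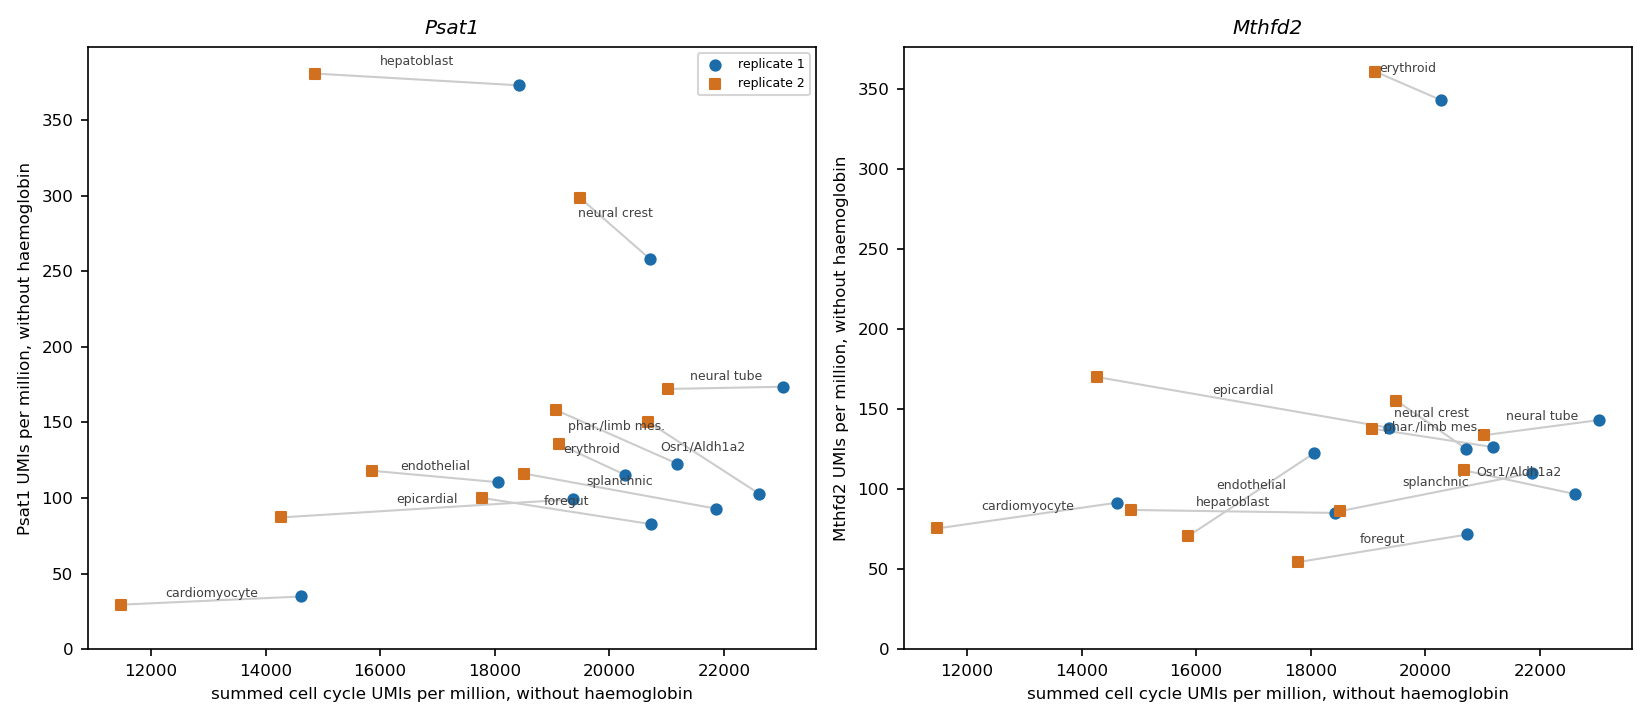
Psat1 and Mthfd2 CPM (y axes, from 0) against the summed S, G2 and M phase CPM (x axes) of the 11 classes, both with haemoglobin UMIs left out of the totals; circles are replicate 1, squares replicate 2 and a line joins the libraries of a class. Hepatoblast-like cells stand apart at the top for Psat1 and erythroid-like cells for Mthfd2, both between the ends of the cell cycle range, while cardiomyocyte-like cells are lowest on the x axis.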

How the data were processed

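The authors deposited raw UMI counts, whole numbers for each gene in each cell barcode. Build mm10 and Scanpy, with no version, are named in the submitters' processing notes. What aligner, annotation release, barcode selection and strand setting the counts rest on is not given in the sources used here. Replicates 1 and 2 are biological replicates processed on different days, per the labels.

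Barcodes under 400 genes or over 10% mitochondrial UMIs were dropped. Scrublet's automatic threshold marked 0 and 1 cells as doublets and was not used, and the 5% of cells with the highest scores (174 and 191) were removed instead. Cells were clustered with scanpy 1.11.5 (2000 variable genes, 30 components, 20 neighbours, Leiden resolution 1) on a random share of 26254 genes, and the 26296 others, with all genes described here, were kept out. A cluster was named where at least 3 markers of a type were raised at least 2-fold and its 10 leading genes did not hold another type's markers without its own; the Osr1/Aldh1a2 class met this as SHF progenitor, and was fitted under that name, but more of its leading genes were splanchnic markers. Classes with under 20 cells in a library were left out.

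UMIs were summed per class and library (22 sums) and tested with the quasi-likelihood F test of edgeR 4.0.16 in R 4.3.3, two-sided, with TMM factors, filterByExpr, the library as a block and Benjamini-Hochberg adjustment over all genes tested. Comparisons by cell cycle UMIs used 44 sums, 1 for each class, library and group of cells. For the test over all classes, each class in each library was a block. For tests in single classes or within a group, class and group formed 1 factor and the library was the block. Those fits did not use the pairing of the groups from the same class and library. The scripts were tested on simulated counts with a fixed spread and no class or library differences beyond planted changes. Such counts are unlike these data, so that test does not show how the calls here perform. With the 2 libraries as a block, a shift shared by all classes of a library was fitted apart from the tested differences. The p-values of class contrasts thus measure how far differences between classes varied between these 2 pools of embryos. They do not measure the full variation between pools. That spread was pooled over all classes, with 10 residual degrees of freedom from the 22 sums, and the fits on 44 sums had 21. Alternatives were DESeq2 1.42.0, other scaling, filters and clustering, and cells thinned to 1000 UMIs. For lists, counts and up to 4 genes with the smallest adjusted p were named, and Atf4 in the Osr1/Aldh1a2 to muscle comparison and Gcsh, Slc38a2 and Sptlc2 in erythroid-like cells were picked outside that rule, after their values were seen. The members and lists were chosen with earlier results of these data known. Promoters and motifs came from RefSeq on GRCm38.p6, gene coordinates from GENCODE M21.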

Additional observations from a re-analysis of the deposited data

How the results depend on the processing

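The direction and the call held in 574 of the alternative values for single genes, while 94 lost the call, 2 gained it, 6 turned their direction and 37 without a test moved by more than their error. For Osr1/Aldh1a2 cells over heart muscle, DESeq2 called 416 genes higher, and cells thinned to 1000 UMIs gave 2 of the 8 genes, with 176 genes higher and 315 lower. Between cells with more and fewer cell cycle UMIs, DESeq2 called 81 genes lower, the S phase list alone 71 lower, thinned sums 45 higher and 65 lower, and the cells at either end of the cell cycle range, an alternative chosen after seeing the data, 1 of the 8 genes higher. Among cells with fewer cell cycle UMIs, Osr1/Aldh1a2 cells over muscle gave 2 of the 8 genes with the S phase list alone. The ends of the range gave 3, and thinned sums 2, with 114 genes higher and 209 lower in the thinned sums. Counts over all genes with the S phase list and at the ends of the range are not given here for that comparison. The same holds for the ends of the range in the cell cycle comparison, so these counts stand without a background. Of the 88 pairs of gene and class, DESeq2 called 10 lower, and thinned cells gave 9 higher and 4 lower. Psph in hepatoblast-like cells was 216.4 CPM with at least 800 genes per cell and 216.2 with doublets kept, and Mthfd1l there was 70.7 with at least 800 genes. The direction turned for Mthfd1l (−0.30), Shmt1 (−0.49) and Mthfd1 (−0.0008) in erythroid-like cells on totals without TMM factors, where the scale by its construction lowers all genes, for Shmt2 in pharyngeal or limb mesenchyme-like cells with doublets kept (−0.0236), and in thinned cells for Shmt1 in endothelial-like (0.0169) and erythroid-like cells (−0.0176). The cause of the other changes was not tested, beyond the smaller number of UMIs in thinned cells.

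Without the replicate block, which pairs the classes of 1 library, Osr1/Aldh1a2 cells over muscle gave 2 of the 8 genes, with 173 genes higher and 389 lower. The cell cycle comparison then gave 48 higher and 21 lower, Osr1/Aldh1a2 cells over muscle among cells with fewer cell cycle UMIs 210 higher and 379 lower, and the pairs of gene and class 8 lower. Leaving out a library left no replicate library, so fold changes were given with no test. Dividing cells by 0 against at least 1 cell cycle UMI gave no value, since no class had 20 cells on each side.

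Depth limits the low values, such as Phgdh with 7 UMIs in endothelial-like cells and Mthfd1l and Phgdh with 36 and 39 in cardiomyocyte-like cells, in both libraries together. Class names were rebuilt here from markers.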

Other observations

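The unnamed cluster of 88 cells carried epithelial markers (Epcam, Cldn6, Cldn7, Cdh1, Spint2 and Krt8) and had Tac2 and Grhl3 among its leading genes. It held Phgdh at 83.1 and 118 CPM in replicates 1 and 2, from 5 and 17 UMIs. Psat1, the next enzyme, was at 0 and 27.8 CPM there, from 0 and 4 UMIs, and Shmt2 at 16.6 and 34.7. These values rest on 29 and 59 cells and were not tested. The unnamed mesenchymal cluster of 751 cells held Psat1 at 113 and 104 CPM, Mthfd2 at 117 and 104 and Phgdh at 28.8 and 58.3. The unnamed cluster of 1619 cells, with median depths of 702.5 and 790 UMIs, held Psat1 at 114 and 168 CPM and Phgdh at 38.6 and 98.9.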
